A study of Homo sapiens with 15 samples.

Results

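The cyclin-dependent kinase (CDK) inhibitor genes are the CIP/KIP family (CDKN1A, CDKN1B, CDKN1C) and the INK4 family (CDKN2A, CDKN2B, CDKN2C, CDKN2D). These 7 genes were chosen by symbol from the 60649 genes listed in each library. RNA was sequenced from cultured HSC-5 cells, which derive from a squamous cell carcinoma (SCC) of the skin of a patient, after sgRNAs had been used to disrupt PRMT5 or its partner WDR77, so that the transcripts altered by loss of either gene could be found. The control sgNeg had genotype WT and the empty sgRNA vector, sgPRMT5-1 and sgPRMT5-2 had genotype PRMT5 Knockout, and sgWDR77-1 and sgWDR77-2 had genotype WDR77 Knockout, all in one HSC-5 line that expresses Cas9 and all with the treatment label Neomycin. Each of these 5 conditions had 3 biological replicates, which gave 15 libraries with 5146711 to 6730428 reads counted on genes. The authors describe the knockouts as complete by quantitative PCR, and whether each condition is a clone or a pool of edited cells is not stated. Values below are CPM, the reads of a gene for the same total of reads on genes in each library, after scaling of the library sizes by the trimmed mean of M values (TMM).

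CIP/KIP proteins bind complexes of a cyclin with its CDK and restrain the passage from G1 into S phase, while INK4 proteins bind CDK4 and CDK6 and keep D-type cyclins from activating them. Active CDKs phosphorylate the retinoblastoma protein and release E2F factors, so the inhibitors hold back the genes of DNA replication. In squamous epithelium, CDKN1A accompanies the exit of keratinocytes from the cell cycle, and loss of the CDKN2A locus is common in squamous tumors.

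PRMT5, an arginine methyltransferase, and WDR77, its partner in the methylosome, were examined first as a check of the labels. PRMT5 was at 59.1, 49.6 and 67.8 CPM in the sgNeg libraries, at 33.0, 35.8 and 41.4 in sgPRMT5-1, at 44.2, 44.5 and 39.4 in sgPRMT5-2, at 54.5, 64.2 and 54.4 in sgWDR77-1, and at 79.9, 65.2 and 64.4 in sgWDR77-2. All 6 libraries with a PRMT5 sgRNA lay below all 3 sgNeg libraries. WDR77 was at 125, 114 and 119 CPM in sgNeg, at 134, 119 and 156 in sgPRMT5-1, at 126, 129.9 and 119 in sgPRMT5-2, at 30.8, 52.0 and 53.3 in sgWDR77-1, and at 26.6, 24.9 and 22.0 in sgWDR77-2. The WDR77 libraries likewise lay below sgNeg, and sgWDR77-2 lay below sgWDR77-1, though the log2 difference of -0.86 between them did not pass (limma voom adjusted p = 0.177). The targeted mRNA fell, with log2 fold changes of -0.69 for sgPRMT5-1, -0.45 for sgPRMT5-2, -1.40 for sgWDR77-1 and -2.29 for sgWDR77-2 (limma voom adjusted p = 0.00525, 0.00257, 0.00141 and 1.78e-08), so the labels held in each library. The mRNA need not be lost when an edit disrupts the protein, so these levels do not measure the knockout itself. Of 8 squamous keratinocyte markers 7 had a mean of at least 1 CPM, with KRT17 the most abundant at 928 CPM, whereas KRT14 was at 0.440 CPM. COL1A2 for fibroblasts, CD3E for leukocytes, KDR for endothelium, and TYR and DCT for melanocytes had no read in any library, although other markers of these types were present, among them COL1A1 at 10.7 CPM, CDH5 at 20.02, ITGAM at 1.26 and PMEL at 3.48. Of the markers of these types, COL1A1, VWF and PMEL were called lower and ITGAM higher in sgPRMT5-2, and CDH5 higher in sgWDR77-1. The summed level of the squamous markers was 2821 ± 290.1 CPM (SD, n = 3) in sgNeg, 2731 ± 137 in sgPRMT5-1, 2336 ± 55.4 in sgPRMT5-2, 2307 ± 75.1 with sgWDR77-1 and 3078 ± 49.8 with sgWDR77-2, with KRT5, DSG3 and KRT6A called lower with each sgRNA. Called higher were SFN in sgPRMT5-1, SFN and ITGB4 in sgPRMT5-2, and SFN and KRT17 in sgWDR77-2. KRT5 had a mean of 656 CPM in sgNeg, 270.3 and 55.9 with the first and second PRMT5 sgRNA, and 39.97 and 91.3 with those of WDR77. The summed level of 5 simple epithelium markers was 2929 ± 221 CPM in sgNeg, 2831 ± 187 and 3513 ± 38.7 with the PRMT5 sgRNAs, and 2131 ± 82.5 and 2627 ± 252 with the WDR77 sgRNAs. Within it KRT7 was called higher and KRT19 lower with each sgRNA, KRT8 and KRT18 higher in sgPRMT5-2, and KRT18 lower in sgWDR77-1. The part of these shifts in the results below was not tested.

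Among the CIP/KIP genes, CDKN1A (ENSG00000124762.14, chr6:36676460-36687337, plus strand) encodes p21, which inhibits CDK2 complexes and also binds the replication clamp PCNA. It was at 43.0, 39.0 and 49.9 CPM in the sgNeg libraries, at 53.3, 66.2 and 78.6 in sgPRMT5-1, and at 147, 125 and 127 in sgPRMT5-2. With the WDR77 sgRNAs it was at 26.2, 37.6 and 54.6 CPM in sgWDR77-1 and at 47.9, 47.2 and 58.9 in sgWDR77-2. All PRMT5 libraries thus lay above all sgNeg libraries, the sgPRMT5-2 libraries lay above all others, and both WDR77 conditions overlapped sgNeg. The means were ordered sgPRMT5-2 (133 ± 12.3, SD, n = 3), sgPRMT5-1 (66.0 ± 12.6), sgWDR77-2 (51.3 ± 6.54), sgNeg (43.9 ± 5.53) and sgWDR77-1 (39.5 ± 14.3), and only the first step of this order was free of overlap. Fewer cells that express a gene and less of its RNA per cell cannot be told apart in bulk RNA, and the same holds for higher levels. The gene DINOL overlaps CDKN1A on the opposite strand but had no read in any library.

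In sgPRMT5-2, CDKN1A rose by 1.60 on the log2 scale (standard error 0.0985, 95% interval 1.39 to 1.81, limma voom adjusted p = 2.72e-10). In sgPRMT5-1 the log2 fold change was 0.56 (standard error 0.141, interval 0.26 to 0.85, limma voom adjusted p = 0.0324). The sgPRMT5-1 call was lost without sgNeg replicate 1, sgNeg replicate 2, sgPRMT5-1 replicate 2 or sgPRMT5-1 replicate 3, where the log2 fold changes were 0.53, 0.47, 0.54 and 0.41 and the limma voom adjusted p were 0.115, 0.115, 0.112 and 0.106. It was also lost when all 15 libraries shared one fit (0.58, limma voom adjusted p = 0.0889), and over all alternatives, limma-trend among them, the Benjamini-Hochberg adjusted p ranged from 0.000471 to 0.115. With sgWDR77-2 the log2 fold change was 0.22 (interval -0.04 to 0.49, limma voom adjusted p = 0.336) and with sgWDR77-1 it was -0.18 (interval -0.64 to 0.28, limma voom adjusted p = 0.709). The latter turned to 0.07 without sgWDR77-1 replicate 1 (limma voom adjusted p = 0.848, range over alternatives 0.199 to 0.929). That library had both the lowest CDKN1A (26.2 CPM) and the highest CDKN1B (136 CPM) of all 15, and the lowest WDR77 of its condition. Over all genes above a low count, its chi-square per degree of freedom against sgWDR77-1 replicates 2 and 3 was 12.5 and 17.7. Between replicates 2 and 3 it was 3.21, and the next highest pair within a condition, sgNeg replicates 1 and 2, had 9.16. Without sgWDR77-1 replicate 1, genes called against sgNeg went from 385 to 1003, with no inhibitor gene among them. A p that misses the threshold does not show that the levels were alike.

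**Figure D1:**
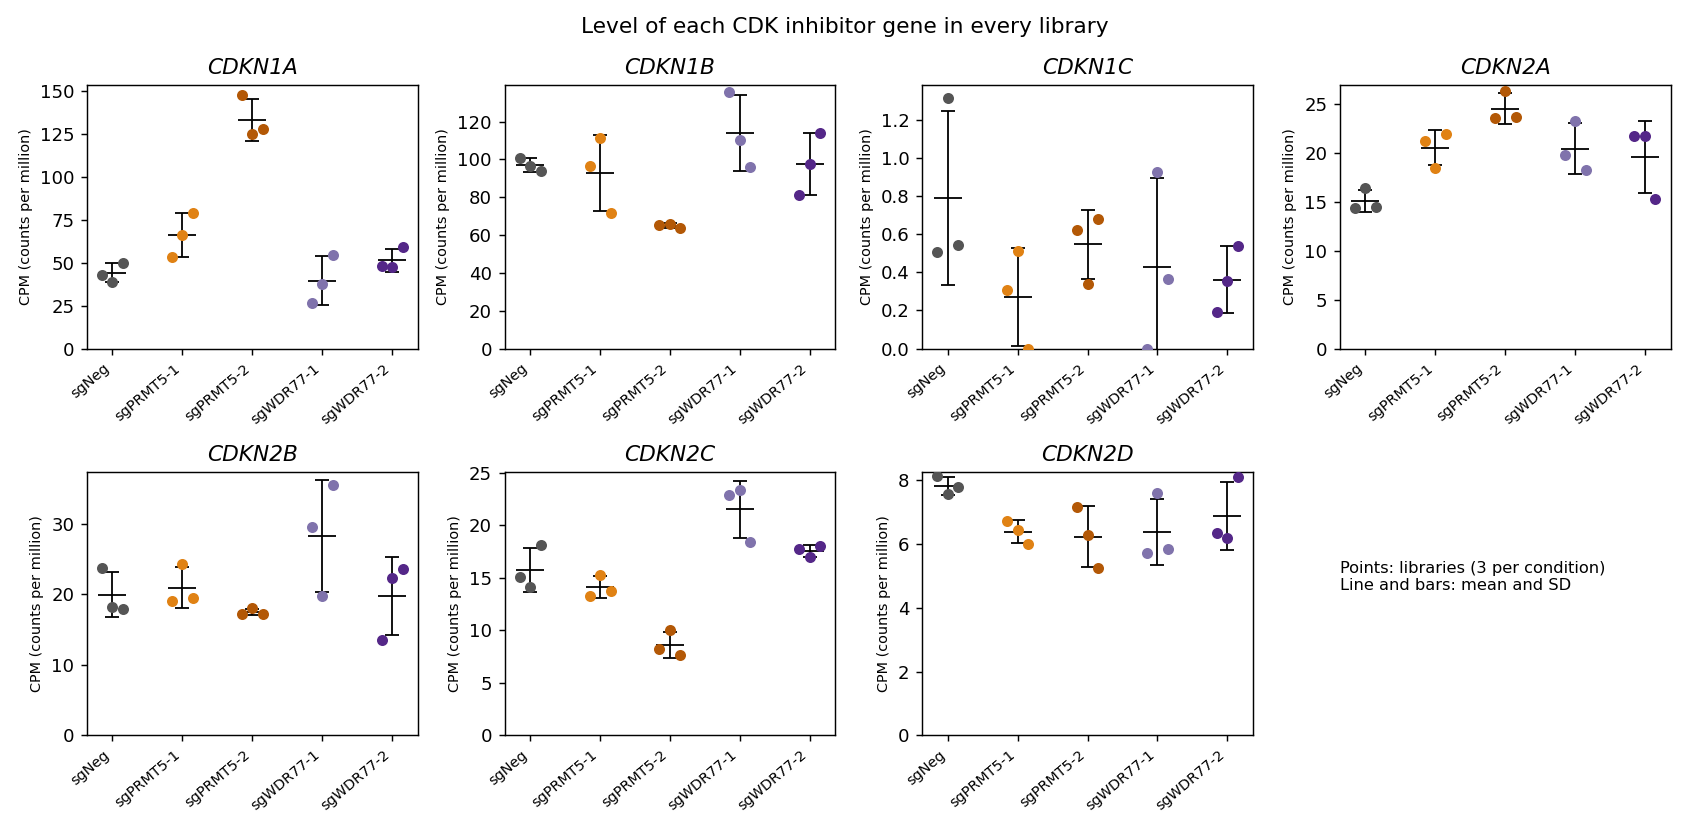
TMM-scaled CPM of each CDK inhibitor gene on the vertical axis, by condition on the horizontal axis, with 1 point per library and the mean and SD of 3 libraries in black. CDKN1A at 125 to 147 CPM and CDKN2C at 7.61 to 10.03 CPM in sgPRMT5-2 stand apart from every library of the other conditions.

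CDKN1B (ENSG00000111276.12, chr12:12685498-12722369, plus strand) encodes p27, the inhibitor that accumulates in resting cells and is degraded before S phase. Its levels were 101, 96.3 and 93.8 CPM in the sgNeg libraries, 96.3, 111 and 71.6 in sgPRMT5-1, and 65.3, 66.0 and 63.6 in sgPRMT5-2. In the WDR77 conditions the levels were 136, 110.3 and 96.2 CPM with sgWDR77-1 and 81.1, 97.7 and 114 with sgWDR77-2. The sgPRMT5-2 libraries were the lowest 3 of all 15, while the other conditions overlapped. By mean the order was sgWDR77-1 (114 ± 20.1), sgWDR77-2 (97.6 ± 16.4), sgNeg (97.0 ± 3.62), sgPRMT5-1 (93.1 ± 20.1) and sgPRMT5-2 (65.0 ± 1.203), with a gap between ranges only at the last step. CDKN1B fell by 0.58 on the log2 scale in sgPRMT5-2 (standard error 0.0788, interval -0.75 to -0.42, limma voom adjusted p = 7.61e-06). The log2 fold change was -0.10 in sgPRMT5-1, 0.25 in sgWDR77-1 and -0.01 in sgWDR77-2 (limma voom adjusted p = 0.722, 0.372 and 0.974). The sign in sgPRMT5-1 turned without sgPRMT5-1 replicate 3 (0.06) and that in sgWDR77-2 turned without sgNeg replicate 1, sgWDR77-2 replicate 1 or sgWDR77-2 replicate 2 (0.03, 0.12 and 0.00). GPR19, which overlaps CDKN1B on the opposite strand, had a mean of 1.51 CPM, and since the strand setting of the counting is not stated, reads of such pairs cannot be told apart.

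CDKN1C, which encodes p57 and lies in the imprinted region at the end of the short arm of chromosome 11 (ENSG00000129757.15, chr11:2883213-2885775, minus strand), was close to the limit of detection. It had 3, 8 and 3 reads in the sgNeg libraries, 2, 3 and 0 in sgPRMT5-1, 4, 2 and 4 in sgPRMT5-2, 0, 5 and 2 in sgWDR77-1, and 1, 2 and 3 in sgWDR77-2. All conditions overlapped, and a difference was not detectable at this depth. The log2 fold changes of -1.60, -0.42, -1.18 and -0.91 in the same order of sgRNAs had intervals that each held 0, the widest from -3.02 to 0.67 in sgWDR77-1.

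Of the INK4 genes, CDKN2A (ENSG00000147889.18, chr9:21967752-21995301, minus strand) encodes p16INK4a and, from another first exon, p14ARF, and counts per gene cannot separate these transcripts. It was at 14.4, 16.4 and 14.5 CPM in sgNeg, at 21.2, 18.5 and 21.9 in sgPRMT5-1, at 23.6, 26.3 and 23.7 in sgPRMT5-2, at 19.8, 23.3 and 18.2 in sgWDR77-1, and at 21.8, 21.7 and 15.3 in sgWDR77-2. All libraries of sgPRMT5-1, sgPRMT5-2 and sgWDR77-1 lay above sgNeg, and of sgWDR77-2 only replicate 3 overlapped sgNeg. The order was sgPRMT5-2 (24.6 ± 1.55), sgPRMT5-1 (20.6 ± 1.81), sgWDR77-1 (20.4 ± 2.61), sgWDR77-2 (19.6 ± 3.72) and sgNeg (15.1 ± 1.15), and sgPRMT5-2 was apart from sgPRMT5-1 while each later step overlapped. CDKN2A rose by 0.69 on the log2 scale in sgPRMT5-2 (standard error 0.132, interval 0.41 to 0.96, limma voom adjusted p = 0.000349). Its log2 fold changes were 0.42 in sgPRMT5-1 (interval 0.10 to 0.75), 0.46 in sgWDR77-1 (0.09 to 0.83) and 0.35 in sgWDR77-2 (-0.02 to 0.72), with limma voom adjusted p = 0.135, 0.177 and 0.273. With a quality weight per library, CDKN2A passed the threshold in sgWDR77-1 (0.55, limma voom adjusted p = 0.0276, range over alternatives 0.0276 to 0.467).

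CDKN2B (ENSG00000147883.12, chr9:22002903-22009305, minus strand) encodes p15INK4b and lies next to CDKN2A. Its CPM ranged from 13.5 in sgWDR77-2 replicate 1 to 35.6 in sgWDR77-1 replicate 3. Means were 28.3 ± 7.96 in sgWDR77-1, 20.96 ± 2.88 in sgPRMT5-1, 19.97 ± 3.24 in sgNeg, 19.8 ± 5.49 in sgWDR77-2 and 17.5 ± 0.439 in sgPRMT5-2, and each condition overlapped sgNeg and its neighbours in this order. The largest of its log2 fold changes against sgNeg was 0.50 in sgWDR77-1 (interval 0.03 to 0.97, limma voom adjusted p = 0.247). The antisense RNA CDKN2B-AS1 overlaps both CDKN2A and CDKN2B on the opposite strand at a mean of 3.27 CPM, with log2 fold changes of 0.10, 0.37, 0.68 and 0.09 for the 4 sgRNAs in the order of the tests above, none past the threshold.

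CDKN2C (ENSG00000123080.12, chr1:50960745-50974634, plus strand) encodes p18INK4c. It was at 15.1, 14.1 and 18.1 CPM in sgNeg, at 13.3, 15.3 and 13.7 in sgPRMT5-1, at 8.24, 10.03 and 7.61 in sgPRMT5-2, at 22.9, 23.3 and 18.4 in sgWDR77-1, and at 17.7, 17.0 and 18.002 in sgWDR77-2. The sgPRMT5-2 libraries were below and the sgWDR77-1 libraries above every other library. The means ran from sgWDR77-1 (21.6 ± 2.71) over sgWDR77-2 (17.6 ± 0.539), sgNeg (15.8 ± 2.10) and sgPRMT5-1 (14.1 ± 1.05) to sgPRMT5-2 (8.63 ± 1.25), with overlap between neighbours only from sgWDR77-2 to sgPRMT5-1. CDKN2C fell by 0.87 on the log2 scale in sgPRMT5-2 (standard error 0.176, interval -1.24 to -0.50, limma voom adjusted p = 0.000562). The log2 fold change was -0.17 in sgPRMT5-1, 0.48 with sgWDR77-1 and 0.16 with sgWDR77-2 (limma voom adjusted p = 0.615, 0.167 and 0.614). With library quality weights CDKN2C passed the threshold in sgWDR77-1 (0.49, limma voom adjusted p = 0.0453, range over alternatives 0.0453 to 0.399). CDKN2D (ENSG00000129355.7, chr19:10566460-10569059, minus strand), which encodes p19INK4d, ranged from 5.25 to 8.13 CPM over the 15 libraries. Its libraries in both PRMT5 conditions lay below sgNeg, yet none of its log2 fold changes, from -0.34 to -0.20, passed the threshold.

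**Figure D2:**
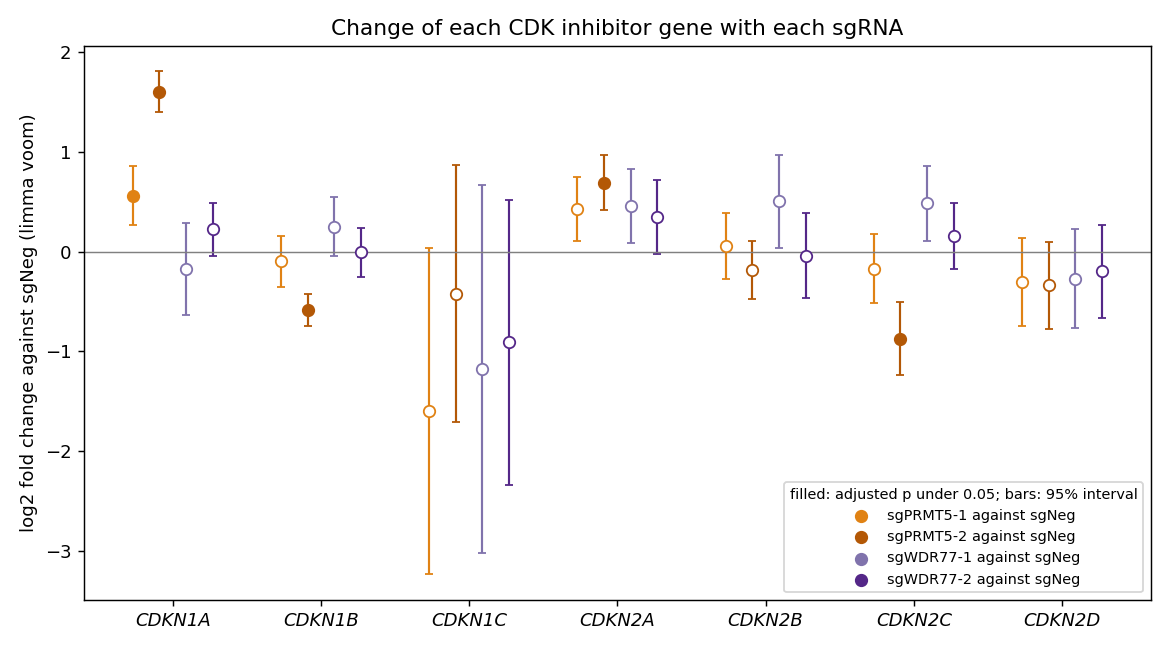
Log2 fold change of each CDK inhibitor gene against sgNeg (vertical axis, limma voom) for each sgRNA, with 95% intervals as bars and filled points where the adjusted p is under 0.05. CDKN1A is filled for both PRMT5 sgRNAs, and CDKN1B, CDKN2A and CDKN2C are filled for sgPRMT5-2.

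Counted over the family, 4 of 7 genes passed the threshold in sgPRMT5-2 (limma voom, adjusted p under 0.05), beside 40.1% of the 14184 genes tested. CDKN1A and CDKN2A were higher, beside 20.9% of genes tested, and CDKN1B and CDKN2C were lower, beside 19.3%, so each family had 1 gene called in each direction. In sgPRMT5-1 only CDKN1A passed, 1 of 7 beside 3.76% of 14102 genes tested (1.52% higher and 2.24% lower). In sgWDR77-1 limma voom called 0 of 7, beside 2.71% of 14202 genes (1.04% higher and 1.67% lower), with CDKN2A, CDKN2B and CDKN2C at an unadjusted p under 0.05 and 0 of 7 called by limma-trend. In sgWDR77-2 limma voom also called 0 of 7, beside 4.97% of 14038 genes (1.89% higher and 3.08% lower), with 0 of 7 at an unadjusted p under 0.05 and 0 by limma-trend. The median log2 fold change of the 7 genes was -0.10 in sgPRMT5-1, -0.34 in sgPRMT5-2, 0.25 with sgWDR77-1 and -0.01 with sgWDR77-2, while the median of all genes tested lay between 0.00 and 0.02 in each. These 4 comparisons share the 3 sgNeg libraries, so their values are given side by side and were not correlated.

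The sgRNAs of a gene were also tested against each other, since an sgRNA past the threshold and another short of it need not differ. Between sgPRMT5-2 and sgPRMT5-1, 3 of 6 genes tested passed the threshold, beside 19.2% of all genes. CDKN1A was higher in sgPRMT5-2 (interval of the log2 difference 0.81 to 1.26), CDKN1B was lower by a log2 difference of -0.49 (interval -0.73 to -0.25, limma voom adjusted p = 0.00570) and CDKN2C by -0.70 (-1.06 to -0.34, limma voom adjusted p = 0.00698). For CDKN2A the log2 difference was 0.26 (interval from just below 0 to 0.52, limma voom adjusted p = 0.153), so its larger change with sgPRMT5-2 was not shown to differ from that with sgPRMT5-1. For PRMT5 mRNA itself the log2 difference was 0.23 and did not pass the threshold (limma voom adjusted p = 0.146). Between sgWDR77-2 and sgWDR77-1 limma voom called 0 of 6 genes, beside 0.121% of all genes, with 0 at an unadjusted p under 0.05 and 0 by limma-trend.

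Pooled fits took the 6 libraries of the 2 sgRNAs of a gene as separate samples, with no term for the sgRNA. Their intervals and p-values thus do not cover how results would vary with other sgRNAs. With both sgRNAs of a gene pooled, 2 of 7 genes differed in PRMT5KO from sgNeg, beside 17.0% of genes tested: CDKN1A, and CDKN2A with a log2 fold change of 0.55 (limma voom adjusted p = 0.0178). Without sgNeg replicate 1, 2 or 3, neither passed, with limma voom adjusted p of 0.112, 0.117 and 0.0683 for CDKN1A and 0.0950, 0.0536 and 0.0726 for CDKN2A. CDKN1A then still had log2 fold changes of 1.05, 0.99 and 1.14, and over all alternatives the Benjamini-Hochberg adjusted p ranged from 3.67e-05 to 0.117 for CDKN1A and from 0.00228 to 0.0950 for CDKN2A. The CDKN1A call was also lost with the replicate number as a term (1.07, limma voom adjusted p = 0.0517). Without sgPRMT5-1 replicate 2, CDKN1B (-0.46) and CDKN2C (-0.63) passed as well (limma voom adjusted p = 0.0159 and 0.0337, with ranges over alternatives of 0.00892 to 0.287 and 0.0109 to 0.229). Both also passed with library quality weights (-0.47 and -0.69), and CDKN2C in a fit of all 15 libraries (-0.51). In WDR77KO limma voom called 0 of 6 genes, beside 3.39% of genes tested, with 1, CDKN2A, at an unadjusted p under 0.05 and 0 by limma-trend. The pooled CDKN1A difference there was 0.01 (interval -0.41 to 0.43), and its sign turned without any 1 of 6 of the 9 libraries. PRMT5KO against WDR77KO, which uses no sgNeg library, called 3 of 6 genes, beside 14.0% of genes tested. CDKN1A was higher in PRMT5KO (interval of the log2 difference 0.58 to 1.58), CDKN2C was lower by a log2 difference of -0.82 (interval -1.17 to -0.47, limma voom adjusted p = 0.00537) and CDKN1B by -0.44 (limma voom adjusted p = 0.0482). The CDKN1B call was lost in 12 of 21 alternatives, among them the omission of any 1 library except sgPRMT5-1 replicate 1, sgPRMT5-1 replicate 2 or sgWDR77-2 replicate 1, with limma voom adjusted p from 0.0512 to 0.105 where it was lost, and CDKN2B passed only without sgWDR77-2 replicate 1 (-0.44, limma voom adjusted p = 0.0412 in place of 0.308). Over all 5 conditions at once, 4 of 6 genes differed (limma voom F test), beside 35.8% of genes tested, with adjusted p of 5.85e-07 for CDKN1A, 4.57e-05 for CDKN2C, 0.00270 for CDKN1B and 0.0173 for CDKN2A. CDKN2A was no longer called without sgNeg replicate 1, sgNeg replicate 3, sgPRMT5-2 replicate 2 or sgPRMT5-2 replicate 3 (limma voom adjusted p = 0.0825, 0.0811, 0.0785 and 0.0509), and CDKN2B was called without sgWDR77-1 replicate 2 (0.0137 in place of 0.100). Over the alternatives the Benjamini-Hochberg adjusted p of the F test ranged from 0.00264 to 0.0825 for CDKN2A and from 0.0137 to 0.392 for CDKN2B.

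To compare levels between the inhibitor genes, CPM were divided by the length of all annotated exons of a gene in kilobases. In sgNeg the level per kilobase was highest for CDKN1A (14.7 ± 1.84, SD, n = 3) and CDKN1B (10.5 ± 0.391), lower for CDKN2C (5.23 ± 0.694), CDKN2D (5.20 ± 0.189), CDKN2B (4.99 ± 0.810) and CDKN2A (3.89 ± 0.295), and lowest for CDKN1C (0.318 ± 0.184). CDKN2B, CDKN2C and CDKN2D did not differ beyond their spread. The summed level per kilobase of the 7 genes was 44.8 ± 2.08 in sgNeg, 51.7 ± 3.73 in sgPRMT5-1, 69.4 ± 4.36 in sgPRMT5-2, 49.4 ± 2.62 with sgWDR77-1 and 48.2 ± 4.79 with sgWDR77-2. Of that sum CDKN1A made up 32.7% in sgNeg, 42.5% in sgPRMT5-1, 64.0% in sgPRMT5-2, 26.4% with sgWDR77-1 and 35.5% with sgWDR77-2. CDKN1B went from 23.4% of the sum in sgNeg to 10.1% in sgPRMT5-2, and CDKN2C from 11.7% to 4.13%. Per kilobase of the longest transcript, CDKN1B (22.4) stood above CDKN1A (19.4) in sgNeg and CDKN2A came next (14.4), so the order of genes depended on the length used, whereas the share of CDKN1A was still 26.6% in sgNeg and 53.7% in sgPRMT5-2.

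**Figure D3:**
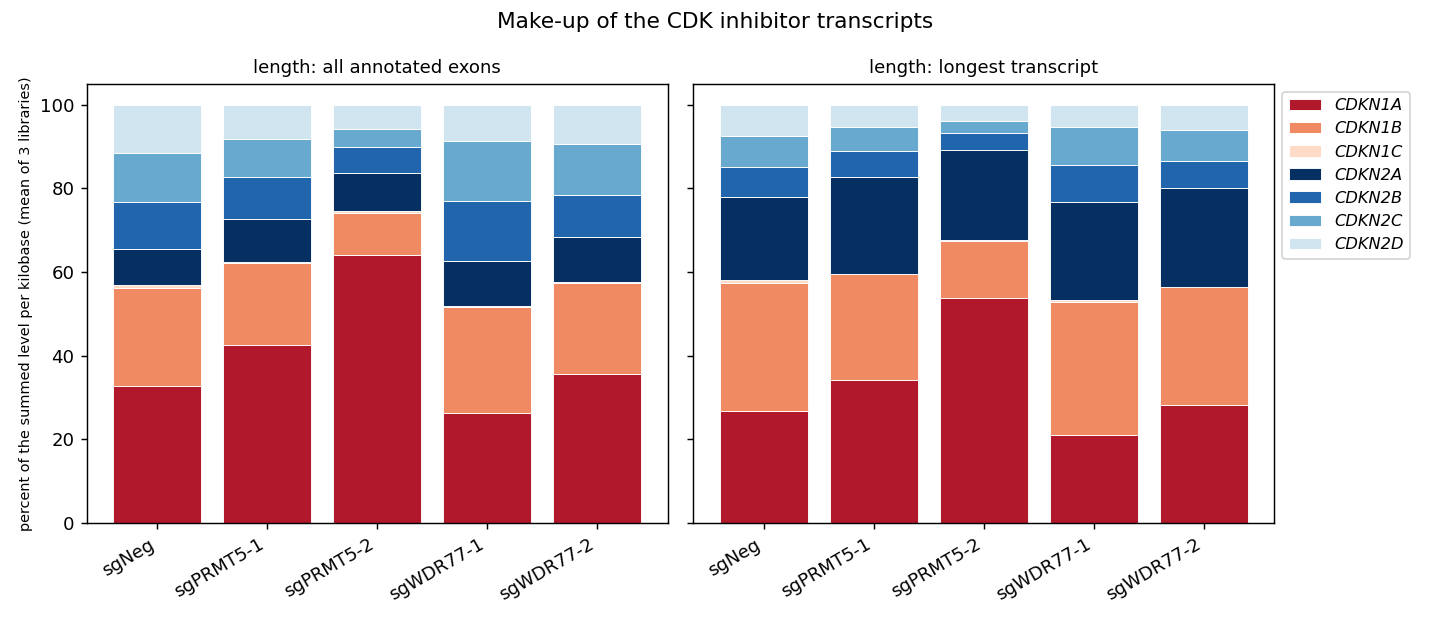
Percent of the summed level per kilobase of the 7 CDK inhibitor genes (vertical axis, mean of 3 libraries) taken by each gene in each condition, with all annotated exons as length on the left and the longest transcript on the right. The CDKN1A share on the left is 32.7% in sgNeg and 64.0% in sgPRMT5-2.

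The sequences before the transcription starts are shown for the genes that rose (CDKN1A, CDKN2A) and fell (CDKN1B, CDKN2C) with sgPRMT5-2, so that their upstream letters can be read beside the changes. RefSeq windows on GRCh38.p14, from 250 bases before to 50 bases after a start, matched 6 of the 7 genes with 9 starts. CDKN1C had no match. Each run is written 5′ to 3′ on the strand of its gene, and capitals mark matches on either strand to the GC box GGGCGG that SP1 binds, the box CCAAT that NF-Y binds, the E box CACGTG of MYC and its relatives, the core promoter word TATAAA, or the E2F words TTTCCCGC, TTTGGCGC, TTTCGCGC and TTTGCCGC. CDKN1A has 1 start (chr6:36678464-36678763, plus strand), CDKN1B has 1 (chr12:12717118-12717417, plus strand), CDKN2A has 2 (chr9:21974808-21975107 for p16INK4a and chr9:21995275-21995574 for p14ARF, minus strand), and of the 3 starts of CDKN2C the window with the most matches is shown (chr1:50968456-50968755, plus strand).
CDKN1A: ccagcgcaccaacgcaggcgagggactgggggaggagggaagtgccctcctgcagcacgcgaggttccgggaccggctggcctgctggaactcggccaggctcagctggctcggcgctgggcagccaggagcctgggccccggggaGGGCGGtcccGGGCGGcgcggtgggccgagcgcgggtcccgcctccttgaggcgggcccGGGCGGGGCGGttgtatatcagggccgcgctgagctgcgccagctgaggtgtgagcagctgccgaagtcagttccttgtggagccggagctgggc
CDKN2A, p16INK4a start: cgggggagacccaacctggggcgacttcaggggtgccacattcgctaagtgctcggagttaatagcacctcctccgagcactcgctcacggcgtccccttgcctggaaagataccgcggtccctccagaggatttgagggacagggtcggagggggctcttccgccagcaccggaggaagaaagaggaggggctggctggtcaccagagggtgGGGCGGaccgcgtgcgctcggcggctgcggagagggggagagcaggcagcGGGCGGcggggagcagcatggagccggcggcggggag
CDKN2A, p14ARF start: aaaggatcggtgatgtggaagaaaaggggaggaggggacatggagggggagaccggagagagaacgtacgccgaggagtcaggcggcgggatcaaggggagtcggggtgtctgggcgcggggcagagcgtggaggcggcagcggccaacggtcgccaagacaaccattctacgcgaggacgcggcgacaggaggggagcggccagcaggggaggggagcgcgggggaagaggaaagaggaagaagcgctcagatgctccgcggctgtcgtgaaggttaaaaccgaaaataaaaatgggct
CDKN1B: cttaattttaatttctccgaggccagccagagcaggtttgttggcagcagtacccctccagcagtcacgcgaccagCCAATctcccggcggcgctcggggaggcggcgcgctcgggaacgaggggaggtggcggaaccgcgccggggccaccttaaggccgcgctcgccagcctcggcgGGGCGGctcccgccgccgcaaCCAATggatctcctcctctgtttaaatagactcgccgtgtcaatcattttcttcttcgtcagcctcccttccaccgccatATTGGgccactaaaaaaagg
CDKN2C: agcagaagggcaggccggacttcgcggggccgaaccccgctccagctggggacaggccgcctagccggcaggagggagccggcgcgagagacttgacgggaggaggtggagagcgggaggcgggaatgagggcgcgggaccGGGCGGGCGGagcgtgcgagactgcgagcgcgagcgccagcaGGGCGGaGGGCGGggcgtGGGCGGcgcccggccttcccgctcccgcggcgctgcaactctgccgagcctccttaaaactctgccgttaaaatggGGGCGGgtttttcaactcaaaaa
The CDKN1A window held 4 GC boxes, of which 1 pair overlapped, and no CCAAT box. In the CDKN2C window there were 6 GC boxes, again with 1 overlapping pair. Of the other CDKN2C starts, the first had 1 E box and the last had 1 GC box, 1 CCAAT box and 1 E box. The p16INK4a start of CDKN2A had 2 GC boxes, whereas none of the searched words occurred at the p14ARF start. CDKN1B had 1 GC box and 3 CCAAT boxes, 1 of them on the opposite strand. CDKN2B had 2 GC boxes, and CDKN2D had 3 GC boxes and 1 CCAAT box. None of these windows held an E2F word or TATAAA. Of all 35114 windows of 300 bases, 45.0% held a GC box, 34.6% a CCAAT box, 7.26% an E box, 11.5% TATAAA and 3.31% an E2F word, and the GC content was 74.3% in the CDKN1A window beside a median of 58.7%. GC boxes were thus present for genes that rose and for genes that fell, and a match describes letters and not a bound site.

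CDK inhibitors act on cyclins and CDKs, and of 20 genes for cyclins, CDKs and the enzymes that switch CDKs on or off 7 rose and 2 fell in sgPRMT5-2, beside 20.9% and 19.3% of all genes tested. In sgWDR77-1 2 of these 20 fell, beside 1.67% of all genes, and in sgWDR77-2 1 rose and 3 fell, beside 1.89% and 3.08%. In sgPRMT5-1 limma voom called 0 of these 20, with 5 at an unadjusted p under 0.05 and 0 by limma-trend. Cyclin D2 (CCND2), which INK4 proteins keep from CDK4 and CDK6, was at 55.4 ± 7.43 CPM (SD, n = 3) in sgNeg, 71.3 ± 9.18 in sgPRMT5-1, 89.9 ± 1.35 in sgPRMT5-2, 21.6 ± 1.86 with sgWDR77-1 and 19.7 ± 0.850 with sgWDR77-2. It rose in sgPRMT5-2 (log2 fold change 0.70) and fell in sgWDR77-1 (-1.32) and sgWDR77-2 (-1.49), with limma voom adjusted p = 5.68e-06, 0.000833 and 1.42e-05. CCNB1 rose by 0.40 in sgPRMT5-2 (limma voom adjusted p = 0.000262). CCND1 rose by 0.31 in sgPRMT5-2 and fell by 0.37 in sgWDR77-2, where CDK6 fell by 0.49 (limma voom adjusted p = 0.000152, 0.00520 and 0.0152). CDC25B, a phosphatase that activates CDKs, fell by 0.64 in sgWDR77-1, and the 2 genes that fell in sgPRMT5-2 were CDC25B and CDK1. The median log2 fold change of this list was 0.16 and 0.17 for the first and second PRMT5 sgRNA and -0.15 and 0.04 for those of WDR77.

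Downstream of the CDKs, 12 of 24 replication genes rose in sgPRMT5-2, beside 20.9% of all genes tested, with a list median of 0.26, among them CLSPN (0.76), MCM10 (0.55) and CDC6 (0.54). Of 23 mitotic genes 10 rose and 0 fell in sgPRMT5-2, beside 20.9% and 19.3% of all genes tested (limma voom, 0 lower at an unadjusted p under 0.05, 10 called in all by limma-trend), with a list median of 0.18, led by FOXM1 (0.56), TPX2 (0.36) and BUB1 (0.39). With library totals alone as the scaling 5 rose and 1 fell, and in a fit of all 15 libraries 5 rose. The shares of all genes tested given here belong to the main fit. With library totals alone 39.5% of all genes called in sgPRMT5-2 were higher, in place of 52.0%. CDKN1A, which holds back the same phases of the cycle, was higher in the same sgPRMT5-2 libraries, and no test of a link was made. With the other sgRNAs 1 of 24 replication genes (CLSPN, 0.49) and 1 of 23 mitotic genes (TPX2, 0.29) rose in sgPRMT5-1, beside 1.52% of all genes, and 2 mitotic genes (KIF20A, 0.51, and BUB1, 0.42) rose in sgWDR77-2, beside 1.89%. By limma-trend 0 mitotic genes were called in sgPRMT5-1. In sgWDR77-1 limma voom called 0 genes of either list, with 2 replication genes and 1 mitotic gene at an unadjusted p under 0.05 and 0 by limma-trend, and list medians of -0.09 and 0.00. The medians of the replication and mitotic lists were 0.18 and 0.16 in sgPRMT5-1 and 0.21 and 0.17 in sgWDR77-2. An unadjusted p under 0.05 was reached by 9 replication and 6 mitotic genes in sgPRMT5-1, and by 7 and 9 in sgWDR77-2. Of 18 pocket protein, E2F and DREAM complex genes 3 rose in sgPRMT5-2 (E2F7 by 0.62, E2F4 by 0.56, and MYBL2) and 2 fell (RBL2, with a log2 fold change of -0.57, and TFDP2), beside 20.9% and 19.3% of all genes tested.

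Upstream, 3 of 29 transcription regulators of the inhibitors rose and 6 fell in sgPRMT5-2, beside 20.9% and 19.3% of all genes tested. With library totals alone 10 fell, where 39.5% of all called genes were higher in place of 52.0%. KLF6, a zinc finger factor known to activate CDKN1A, was at 61.3 ± 6.15 CPM (SD, n = 3) in sgNeg, 80.9 ± 6.46 in sgPRMT5-1, 221 ± 8.82 in sgPRMT5-2, 53.7 ± 4.26 with sgWDR77-1 and 136 ± 19.6 with sgWDR77-2. It rose by 1.85 on the log2 scale in sgPRMT5-2, by 1.13 in sgWDR77-2 and by 0.39 in sgPRMT5-1 (limma voom adjusted p = 2.29e-12, 3.78e-05 and 0.0461). CBX7, a Polycomb protein known to repress CDKN2A, fell by 0.91 and JUNB by 0.73 in sgPRMT5-2 (limma voom adjusted p = 3.09e-05 and 1.41e-06). In sgWDR77-1 FOXO4 rose by 1.22, and in sgWDR77-2 JUN rose by 0.45 and SMAD3 fell by 0.50 (limma voom adjusted p = 0.0130, 0.0110 and 0.00337). TP63, whose product represses CDKN1A in basal keratinocytes, had log2 fold changes of 0.15 and -0.08 with the PRMT5 sgRNAs and 0.33 and 0.08 with the WDR77 sgRNAs (limma voom adjusted p = 0.404, 0.350, 0.222 and 0.650). It was lower in sgPRMT5-2 than in sgPRMT5-1 (log2 difference -0.23, limma voom adjusted p = 0.0495). Between sgWDR77-2 and sgWDR77-1 the log2 difference of -0.23 did not pass (limma voom adjusted p = 0.521). Protein levels were not measured in these libraries.

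Of 16 genes for the turnover of the inhibitor proteins 6 rose in sgPRMT5-2 and 1 (PSMD10) fell, beside 20.9% and 19.3% of all genes tested, led by DDB1 (0.45), CDC20 (0.45) and CUL4A (0.38). In a fit of all 15 libraries 3 rose and 0 fell, and PSMD10 was also not called without a filter, without sgNeg replicate 3 or without any 1 sgPRMT5-2 library. With sgPRMT5-1, sgWDR77-1 and sgWDR77-2 limma voom called 0 of these 16, with 5, 1 and 2 at an unadjusted p under 0.05 and 0 by limma-trend.

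**Figure D4:**
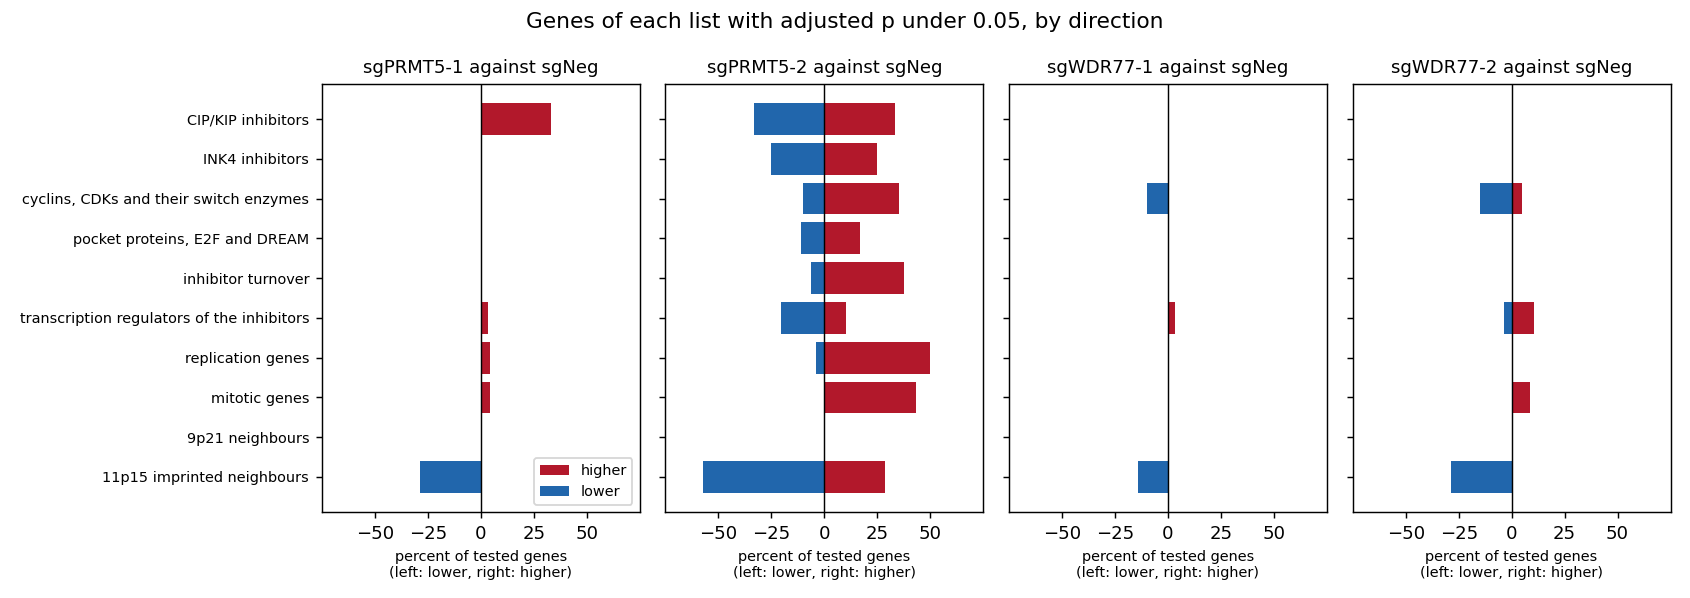
Percent of the tested genes of each list that passed an adjusted p under 0.05 (limma voom), lower to the left and higher to the right, with 1 panel per sgRNA against sgNeg. In sgPRMT5-2 the bars for replication genes (12 of 24) and mitotic genes (10 of 23) point to higher levels, while the bars of the inhibitor families point both ways.

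The genes beside the inhibitors on the chromosome were also examined. Within 100 kb of CDKN1A only SRSF3 was tested, with a log2 fold change of 0.22 in sgPRMT5-2 (limma voom adjusted p = 0.0153) beside 1.60 for CDKN1A. Around CDKN2A and CDKN2B the metabolic gene MTAP was at 133 ± 10.4 CPM in sgNeg and did not pass with any sgRNA, and no gene of the 9p21 list, 5 or 6 of which were tested, was called by limma voom or limma-trend with any sgRNA, with 2 at an unadjusted p under 0.05 in sgWDR77-2 and 0 with the others. Of 7 tested genes of the wider imprinted region of CDKN1C, which reaches beyond 100 kb, 2 rose and 4 fell in sgPRMT5-2, beside 20.9% and 19.3% of all genes tested, among them TSSC4 (0.79), H19 (-4.03) and KCNQ1 (-3.62). H19 and KCNQ1 fell in sgPRMT5-1 (-3.11 and -1.97) and sgWDR77-2 (-4.46 and -2.64). In sgWDR77-1 H19 fell (-3.82), and KCNQ1 had a log2 fold change of -1.10 (limma voom adjusted p = 0.220), not shown to differ from that in sgWDR77-2 (limma voom adjusted p = 0.394). H19 went from 34, 30 and 19 reads in the sgNeg libraries to at most 6 in any library of the other conditions, although CDKN1C itself could not be resolved. Without sgNeg replicate 1, and in a fit of all 15 libraries, this count in sgPRMT5-2 was 1 higher and 2 lower, and without any 1 of the sgPRMT5-2 libraries 2 were lower.

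Genes whose log2 CPM most resembled each inhibitor over the 15 libraries were found by Pearson r among genes with a mean normalized count of at least 50. For CDKN1A they were YRDC (r = 0.970), EPHA2 (0.958), ITGA5 (0.957), TSC22D1 (0.956) and KIRREL1 (0.951). EPHA2, a receptor tyrosine kinase, went from a mean of 141 CPM in sgNeg to 281 in sgPRMT5-2, and ITGA5, an integrin subunit, from 96.3 to 233. The closest to CDKN1B were PRRG1 (r = 0.972), ZBTB41 (0.971) and OGFRL1 (0.968), and to CDKN2C they were PLEKHA4 (0.934), NRARP (0.918) and MYO3B (0.915). NRARP, a feedback inhibitor of Notch signaling, was at 181 CPM in sgNeg and 59.5 in sgPRMT5-2. CDKN2A was closest to BPGM (0.866), ZBTB40 (0.864) and PITPNA (0.862), CDKN2B to NBR1 (0.896), PRNP (0.869) and C22orf39 (0.863), and CDKN2D to C1orf115 (0.843), SLC30A1 (0.753) and CPPED1 (0.739). The 15 libraries form 5 conditions that share depth and processing, so r describes these libraries alone, and with Spearman rho 0 of the 5 genes closest to CDKN1A were the same.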

How the data were processed

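The authors deposited read counts per gene, 1 file per library, made with STAR and HTSeq on hg38 and compared by them with DESeq2, for which limma voom stands in here. The strand setting of the counting is not stated, and the library kit is named TruSeq RNA v2 in the methods and TruSeq Stranded mRNA on the sample labels. Not used were reads outside genes (2.75% to 7.16% of those listed), reads that fit several genes (7.09% to 7.93%) and multiply aligned reads (9.49% to 13.1%).

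Counts were scaled by TMM (trim 0.3 of log ratios, 0.05 of levels) and fitted with limma voom, each comparison on its own libraries and the F test on all 15. Genes with a mean normalized count of at least 3 were tested. All 7 CDK inhibitor genes passed in the comparisons of single sgRNAs and of PRMT5KO with sgNeg, and CDKN1C did not pass in the others. Tests were two-sided, with Benjamini-Hochberg adjustment over all genes tested and a threshold of 0.05. Each p-value weighs a difference between groups against the spread between these samples. In the pooled fits that spread also holds differences between the sgRNAs of a gene. Variation between independent edits may not be covered, since clones or pools are not stated. R 4.3.3, limma 3.58.1, Python 3.11.15, pandas 2.3.3, numpy 2.4.6 and matplotlib 3.10.9 were used. Gene models came from GENCODE 44, with 60507 of 60649 genes matched, and promoter windows from RefSeq on GRCh38.p14.

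The inhibitor genes and the gene lists were chosen with earlier results of these data known. In each list that is reported, up to 3 genes called with the smallest adjusted p per sgRNA are named with their values, and called genes are otherwise named without values where they are few. Alternatives were relative log expression, upper quartile and library totals alone as scaling, tests without a filter or with a mean count of at least 10, all 15 libraries in one fit, limma-trend (prior count 2), library quality weights, the replicate number as a term, and each library left out in turn. Spearman rho in place of Pearson r and the longest transcript in place of all exons were also tried. List counts in sgPRMT5-2 and the F test of each inhibitor gene under these alternatives were added after the data had been seen.

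Each condition has 3 libraries from one cell line, so the results describe these cells and sgRNAs alone. Counts per gene cannot separate p16INK4a from p14ARF or reads of overlapping genes on opposite strands. RNA levels do not give protein levels, which matter for inhibitors regulated by degradation. Whether cells were clones or pools is not stated, so differences between clones and effects of an sgRNA cannot be told apart.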

Additional observations from a re-analysis of the deposited data

Results flagged for a closer look

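CDKN2B in sgPRMT5-1 replicate 2 was the highest of the 6 PRMT5KO libraries at 24.3 CPM, with the next at 19.5 CPM, a gap of 0.678 of the range. It was the only such library in 14 groups checked. Chance alone marks about 1 in 20 groups where all values come from one normal distribution. Each group here pooled the libraries of both sgRNAs of a gene, so that rate need not hold.

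Between sgPRMT5-2 and sgPRMT5-1 the log2 difference was 1.04 for CDKN1A, -0.49 for CDKN1B and -0.70 for CDKN2C (limma voom adjusted p = 9.31e-07, 0.00570 and 0.00698).

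Between PRMT5KO and WDR77KO the log2 difference was 1.08 for CDKN1A, -0.44 for CDKN1B and -0.82 for CDKN2C (limma voom adjusted p = 0.00865, 0.0482 and 0.00537). These pooled fits had no term for the sgRNA, so the p-values do not cover variation between sgRNAs. The cause of these differences was not tested.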

How the results depend on the processing

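CDKN1A in sgPRMT5-2 against sgNeg was called in all 15 alternatives (log2 fold change 1.51 to 1.69), as were CDKN1B, CDKN2A and CDKN2C.

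The CDKN1A log2 fold change in sgPRMT5-1 against sgNeg, 0.56, was 0.41 to 0.72 with 1 library left out. The call was lost in a fit of all 15 libraries (0.58, limma voom adjusted p = 0.0889) and without sgNeg replicate 1 (0.53, 0.115), sgNeg replicate 2 (0.47, 0.115), sgPRMT5-1 replicate 2 (0.54, 0.112) or sgPRMT5-1 replicate 3 (0.41, 0.106).

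The CDKN1A log2 fold change in PRMT5KO against sgNeg, 1.08, was 0.94 to 1.25 with 1 library left out, and the call was lost without sgNeg replicate 1, 2 or 3 (limma voom adjusted p = 0.112, 0.117 and 0.0683). It was also lost with the replicate number as a term (1.07, limma voom adjusted p = 0.0517). The CDKN1A log2 fold change in sgWDR77-1 against sgNeg, -0.18, was -0.44 to 0.0670 with 1 library left out. The CDKN1A log2 fold change in WDR77KO against sgNeg, 0.01, was -0.0730 to 0.17 with 1 library left out and -0.00623 with library totals alone.

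CDKN2A in PRMT5KO against sgNeg was lost without any 1 sgNeg library. CDKN1B in PRMT5KO against WDR77KO was lost in 12 of 21 alternatives. With library quality weights, CDKN2A and CDKN2C passed in sgWDR77-1 and CDKN1B and CDKN2C passed in PRMT5KO against sgNeg.

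Small log2 fold changes turned sign. CDKN1B in sgPRMT5-1 against sgNeg, -0.10, was 0.00188 with library quality weights and -0.24 to 0.0636 with 1 library left out. CDKN2B in sgPRMT5-1 against sgNeg, 0.05, was -0.00881 without sgNeg replicate 2, -0.0422 without sgNeg replicate 3 and -0.0576 without sgPRMT5-1 replicate 2. CDKN1B in sgWDR77-2 against sgNeg, -0.01, was 0.00153 with upper quartile scaling, 0.0436 with library quality weights, 0.0298 without sgNeg replicate 1, and 0.125, 0.00221 and -0.107 without sgWDR77-2 replicate 1, 2 and 3. CDKN2B in sgWDR77-2 against sgNeg, -0.04, was 0.0986 with library quality weights, 0.0992 without sgNeg replicate 1 and 0.210 and -0.165 without sgWDR77-2 replicate 1 and 3. CDKN2D in sgPRMT5-2 against sgPRMT5-1, -0.04, was -0.142 to 0.0684 with 1 library left out. CDKN2D in sgWDR77-2 against sgWDR77-1, 0.10, was -0.0565 with library quality weights and -0.0145 to 0.237 with 1 library left out. CDKN2A in sgWDR77-2 against sgWDR77-1, -0.09, was 0.0248 without sgWDR77-1 replicate 2 and -0.167 to 0.0965 with 1 library left out. CDKN2B in PRMT5KO against sgNeg, -0.07, was -0.161 to 0.0501 with 1 library left out.

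Numbers of genes called moved by more than 1.5 times. In sgPRMT5-1 against sgNeg 530 became 987 without a filter, and 211 to 510 with 1 library left out. In sgWDR77-1 against sgNeg 385 became 1526 with quality weights, 1333 in a fit of all 15 libraries, and 56 to 1003 with 1 library left out. In sgWDR77-2 against sgNeg 698 became 1214 with quality weights, and 293 to 661 with 1 library left out. In sgPRMT5-2 against sgPRMT5-1 2690 became 4401 with quality weights, 1059 in a fit of all 15 libraries, and 1429 to 4711 with 1 library left out. In sgWDR77-2 against sgWDR77-1 17 became 11 with library totals alone, 127 without a filter, 677 with quality weights, 339 in a fit of all 15 libraries, and 0 to 156 with 1 library left out. In PRMT5KO against sgNeg 2397 became 4600 with quality weights, and 483 to 3562 with 1 library left out. In WDR77KO against sgNeg 477 became 1170 with quality weights, 1187 in a fit of all 15 libraries, and 199 to 677 with 1 library left out. In PRMT5KO against WDR77KO 1962 became 4869 with quality weights, 3813 in a fit of all 15 libraries, and 876 to 3178 with 1 library left out.

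The share of called genes that were higher moved by more than 10 points with library totals alone, from 40.4% to 27.8% in sgPRMT5-1, from 52.0% to 39.5% in sgPRMT5-2, from 51.3% to 34.0% in PRMT5KO against sgNeg, and from 57.1% to 37.7% in PRMT5KO against WDR77KO. The cause was not tested.

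The replicate numbers were not shown to pair the samples: deviations from the condition mean correlated by -0.33 to 0.27 between libraries of the same replicate number. Libraries of different numbers were not compared, so this range cannot settle whether any conditions were paired. With this number as a block, CDKN1A in PRMT5KO against sgNeg was no longer called (1.07, limma voom adjusted p = 0.0517), and genes called were 1427 in sgPRMT5-1 and 369 in sgWDR77-2.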
